A study of Mus musculus with 4 samples.

Results

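Intercalated cells are the acid-base regulating cells of the collecting duct and connecting tubule, and 290 of 36833 kept barcodes of newborn mouse kidney were taken as such cells here. A barcode was kept with at least 1000 UMIs (unique molecular identifiers, each standing for 1 captured RNA molecule), at least 500 genes and under 15% mitochondrial UMIs. It was a member when at least 3 of 7 genes were detected (Foxi1, Atp6v1g3, Atp6v0d2, Insrr, Slc26a4, Dmrt2 and Hepacam2) and Slc12a1, the sodium-potassium-chloride cotransporter of the thick ascending limb, had at most 2 UMIs. Although 10000 cells were loaded per library, more barcodes than that passed these limits, and whether each holds 1 cell was not tested. The control library, from a whole kidney of a newborn Six2Cre mouse, held 180 members among 21188 kept barcodes. The floxed library, from a newborn Six2CreTet2/3f/f mouse with floxed alleles of both Tet2 and Tet3, held 110 members among 15645. Both mice carried Six2Cre, a recombinase driven from the gene of the nephron progenitor factor Six2. With 1 library per genotype there is no replicate and no test across animals, and every interval is a 95% interval that covers counting error only.

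An intercalated cell is packed with mitochondria and with vesicles that carry a proton pump, the vacuolar H+-ATPase. Type A cells place the pump on the urinary side and return bicarbonate to the blood through the exchanger Slc4a1, while type B cells and the cells called non-A-non-B carry the chloride-bicarbonate exchanger Slc26a4 (pendrin) on the urinary side. The transcription factor Foxi1 is needed for the cells to form, and Notch signalling between neighbours sets the balance with principal cells, which take up water and sodium through Aqp2 and the epithelial sodium channel. The principal and intercalated cells of the collecting duct descend from the ureteric bud, and Six2-positive progenitors give rise to the nephron from the glomerulus to the distal tubule.

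The members were deeper than other barcodes and differed in depth between the libraries. Their median was 30409 UMIs and 5830 genes in the control library and 16890.5 UMIs and 4390 genes in the floxed library, against medians of 6213 and 4898 UMIs over all kept barcodes. A rule that asks for detected genes is met more easily by deep barcodes. Among kept barcodes with at most 2 Slc12a1 UMIs, the median rose from 6021 and 4745 UMIs at 0 rule genes to 16008 and 11987 at 2. The part of the rule in the depth of the members was not tested. In all, 5558415 control and 2350945 floxed UMIs lay behind the sums below. Of the kept barcodes, 99 had a sequence found in both libraries, and 0 of these were members. The targeted transcripts were present in both libraries. Tet3, a dioxygenase that oxidises 5-methylcytosine, stood at 78.3 CPM (counts scaled to the total UMIs of all members of the library) in control members and 65.9 CPM in floxed members, a ratio of 0.842 (0.697 to 1.01). Tet2, a related enzyme, stood at 35.6 and 30.6 CPM, a ratio of 0.860 (0.647 to 1.13). In all other kept barcodes Tet3 was at 75.6 and 45.6 CPM. The counted 3′ tags may lie outside the deleted exons, so these levels do not check recombination, in these cells or in others.

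The members were chosen by the detection of the 7 genes of the rule, so the levels of these genes only describe them. Foxi1 (ENSMUSG00000047861; GRCm38 chromosome 11, 34204341 to 34208089) stood at 116 CPM in control members and 142 CPM in floxed members. It was at 1.06 and 2.75 CPM in the rest of the kept barcodes. Atp6v1g3 (ENSMUSG00000026394; chromosome 1, 138273738 to 138289462), a stalk subunit of the pump, was at 694 and 817 CPM in members against 4.17 and 7.20 CPM in the rest. Atp6v0d2 (ENSMUSG00000028238; chromosome 4, 19876838 to 19922566), a subunit of the membrane sector, was at 181 and 288 CPM against 2.45 and 4.93 CPM. Hepacam2 (ENSMUSG00000044156; chromosome 6, 3457089 to 3498322), an immunoglobulin-like adhesion protein, was at 65.8 and 77.4 CPM against 0.423 and 0.487 CPM. Each of these genes was low in the rest of both kidneys. Atp6v0d2 was detected in 177 of 180 control members and 108 of 110 floxed members, Atp6v1g3 in 167 and 93, Foxi1 in 154 and 95, Hepacam2 in 141 and 80, and Dmrt2 in 127 and 77. Insrr (41 and 26) and Slc26a4 (20 and 10) were found in few members. Endothelial barcodes, which should lack these genes, held Atp6v1g3 in 2.87% and 2.73% and Foxi1 in 0.798% and 0.252%, at median depths of 5931 and 3909 UMIs. At the edge of the rule, 22 control and 26 floxed members had exactly 3 of the genes. A further 52 control and 70 floxed barcodes had exactly 2 and stayed out. Of barcodes with 3 or more genes, 4 and 2 had exactly 2 Slc12a1 UMIs, while 7 control and 11 floxed barcodes had 3 or more and stayed out.

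The genes that stood highest in members over all other kept barcodes included 5 genes of the rule, 3 further pump subunits and 2 ammonia channels among the first 20. Since the rule chose the cells, these folds describe the members and are no test. Ranked by the smaller fold of both libraries, the first were Dmrt2 (191-fold), Hepacam2 (156-fold), Atp6v1g3 (113-fold), Atp6v1c2 (92.7-fold), Atp6v0d2 (58.3-fold) and Foxi1 (51.6-fold). Of these 6, Atp6v1c2, a pump subunit, is not a gene of the rule. Next came Tmem117 (21.9-fold), the basolateral ammonia channel Rhbg (20.6-fold), the pump subunit Atp6v1b1 (18.8-fold), the mitochondrial creatine kinase Ckmt1 (15.04-fold) and the membrane mucin Muc20 (14.9-fold). They were followed by Car12, a membrane carbonic anhydrase (14.5-fold), Cpeb2, Tdrp, Serpinb6b, the receptor tyrosine kinase Kit (12.3-fold), Rcan2, the apical ammonia channel Rhcg (11.6-fold), the pump subunit Atp6v0a4 (11.2-fold) and the guanylin gene Guca2a (10.6-fold).

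Of the subunits of the proton pump, those known to be enriched in kidney stood far above their level in principal barcodes, and those found in most cells differed less. Several subunits come as pairs from different genes, one widely expressed and one restricted to few tissues. Atp6v1b1, the restricted form of the catalytic-sector B subunit (GRCm38 chromosome 6, 83743017 to 83758855), was at 100 CPM in control members and 172 CPM in floxed members. In principal reference barcodes, which are non-members with at least 3 of 6 principal cell genes and at most 2 Slc12a1 UMIs, it was at 13.2 and 38.8 CPM. Its widely expressed partner Atp6v1b2 was at 85.1 and 69.3 CPM in members and at 42.3 and 40.6 CPM in principal barcodes. Atp6v1c2, the restricted stalk subunit, was at 144 and 207 CPM in members against 2.33 and 2.92 CPM in principal barcodes, while Atp6v1c1 was at 43.4 and 38.3 CPM against 29.0 and 29.7 CPM. Atp6v0a4, a restricted form of the large membrane subunit, was at 139 and 197 CPM in members against 19.0 and 34.0 CPM. It was also found in control thick ascending limb barcodes, at 59.4 CPM, and in distal convoluted tubule barcodes, at 68.7 CPM. The plot of pump subunits by cell type shows these pairs.

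**Figure D1:**
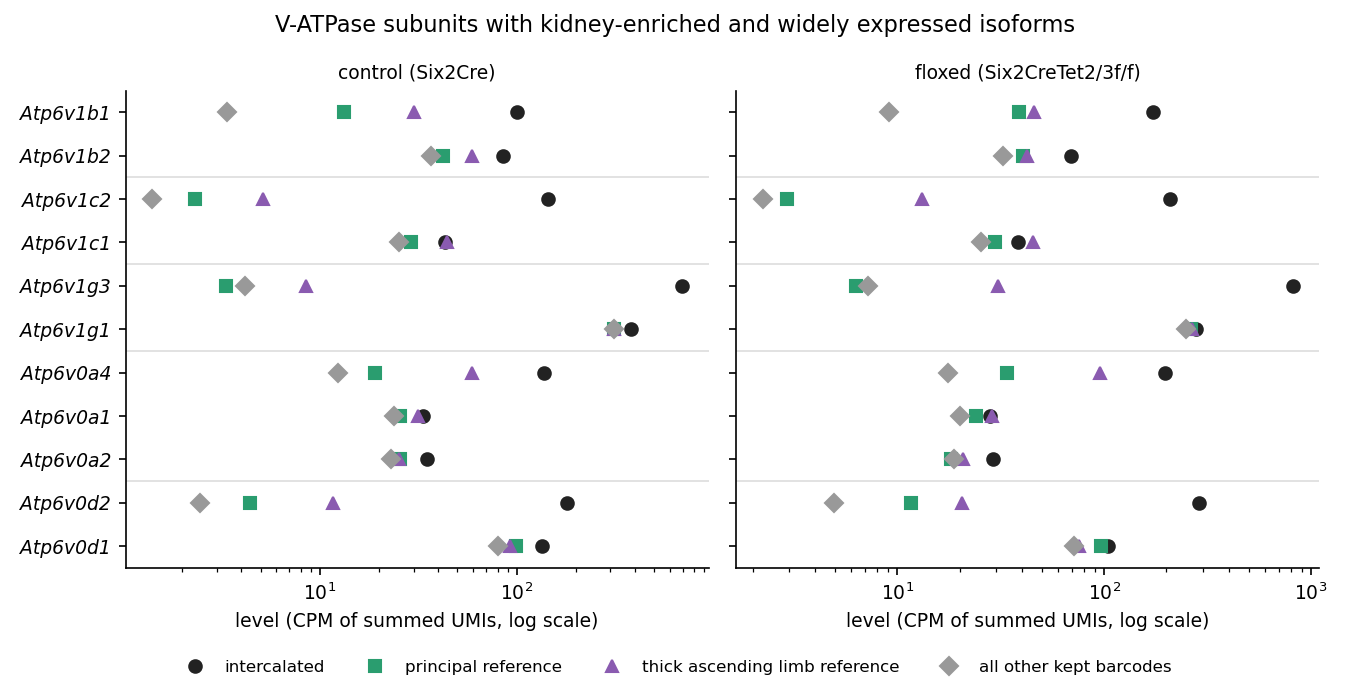
Levels of restricted and widely expressed proton pump subunits in CPM on a log axis, in members and in reference barcodes of other cell types, for the control and the floxed library. Each point is the sum over all barcodes of a type in 1 library. Restricted forms such as Atp6v1c2 (144 and 207 CPM in members, 2.33 and 2.92 CPM in principal barcodes) stand far above their level in principal barcodes. Their widely expressed partners differ less. Atp6v0a4 is also found in control thick ascending limb barcodes, at 59.4 CPM against 139 CPM in control members.

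The start regions of 3 of these genes are shown because Foxi1 is a forkhead factor and the pump genes are among its known targets. The 250 bases before the start in each gene's RefSeq promoter entry, on GRCm38.p6, were searched on both strands for the forkhead core TGTTTA. It is printed in capitals. Of 32851 RefSeq regions of this length, 12.03% hold it. The window of Atp6v1b1 (chr6:83742767-83743016, plus strand) has 1 match, 98 bases before the start. Those of Atp6v1g3 (chr1:138273488-138273737, plus strand) and Foxi1 (chr11:34208090-34208339, minus strand) have 0, as do those of Atp6v0a4, Atp6v1c2, Hepacam2, Dmrt2 and Slc26a4. By the gene coordinates used here, the windows of Atp6v1c2 and Hepacam2 lie inside the gene, and those of Dmrt2 and Slc26a4 overlap its start. A match is a run of letters and not a measured binding site.
Atp6v1b1: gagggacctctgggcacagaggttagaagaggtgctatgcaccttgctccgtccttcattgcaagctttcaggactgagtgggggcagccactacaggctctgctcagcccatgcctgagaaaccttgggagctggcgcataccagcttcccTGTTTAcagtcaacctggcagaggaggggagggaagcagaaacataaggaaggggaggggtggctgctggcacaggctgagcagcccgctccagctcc
Atp6v1g3: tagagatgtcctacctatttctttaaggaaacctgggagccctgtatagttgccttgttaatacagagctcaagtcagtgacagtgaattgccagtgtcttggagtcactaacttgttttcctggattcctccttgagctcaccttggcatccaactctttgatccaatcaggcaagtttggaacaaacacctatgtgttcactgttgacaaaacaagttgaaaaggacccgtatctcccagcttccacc
Foxi1: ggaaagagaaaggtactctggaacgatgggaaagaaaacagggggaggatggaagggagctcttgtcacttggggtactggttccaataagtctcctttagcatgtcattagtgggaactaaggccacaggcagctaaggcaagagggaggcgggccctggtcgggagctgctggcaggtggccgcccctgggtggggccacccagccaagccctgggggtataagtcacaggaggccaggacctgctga

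Between the libraries, 1 restricted subunit passed a rule of size and the widely expressed subunits were centred on no difference. A gene was said to pass the rule of size when it reached 50 CPM in at least 1 library and the interval of its ratio lay wholly beyond 1.5-fold. Of the 3390 genes that could pass, 84 passed as higher in the floxed members (2.48%) and 79 as lower (2.33%). Of the 5 kidney-enriched subunits, Atp6v1b1 passed, at a ratio of 1.72 (1.51 to 1.95). Its lower bound lay just beyond 1.5-fold. Atp6v1b1 no longer passed in 11 of 15 alternative settings (log2 0.34 to 0.76), TMM scaling (a trimmed-mean normalisation) among them. It was below 0 in 1, at -0.39 after every barcode was thinned to 2000 UMIs and members were chosen again. The log2 ratio of Atp6v1b1 was 0.78 in members, 1.55 in principal barcodes and 1.43 in the rest, so the rise was not particular to members. Atp6v1c2 (1.44, 1.28 to 1.61) and Atp6v0a4 (1.42, 1.27 to 1.60) did not pass. Atp6v0d2 (1.59, 1.44 to 1.75) and Atp6v1g3 (1.18, 1.11 to 1.24) did not pass either, and as genes of the rule their ratios only describe the members. Of the widely expressed subunits 0 of the 12 that could pass did, and their median log2 ratio over 15 genes was 0.04, equal to the 0.04 of all 8854 genes at 10 CPM or more. The lowest ratio among the 12 was that of Atp6v1g1 (382 and 279 CPM, 0.731) and the highest that of Atp6v0e (598 and 749 CPM, 1.25).

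Many members carried the transcripts of the neighbouring cell types as well, which goes against the label for cells with intercalated transcripts alone. Aqp2, the water channel of principal cells, was below 3 UMIs in 48 of 180 control members (26.7%) and in 48 of 110 floxed members (43.6%). Members with 3 or more Aqp2 UMIs held a median of 5 of 6 principal cell genes in the control and 6 of 6 in the floxed library. Where Aqp2 reached 20 UMIs, its level was 3556 CPM in control members and 2992 CPM in floxed members, beside 3835 and 4645 CPM in principal barcodes with as many Aqp2 UMIs. The median depth of those members was 34162 and 28267 UMIs, and of those principal barcodes 14620 and 11854 UMIs. The genes of the rule stayed present. Foxi1 was at 119.3 and 120.5 CPM in those members and at 11.03 and 15.04 CPM in those principal barcodes. Atp6v1g3 was at 1652 and 1431 CPM in members with fewer than 3 Aqp2 UMIs and at 537 and 517 CPM in the others. Whether such a barcode holds 1 cell or 2 was not tested. The 8% of barcodes with the highest doublet scores held 3.33% and 3.64% of members and 14.8% of principal barcodes in each library, and 5 of those 6 control and 3 of those 4 floxed members had Aqp2 high (400 CPM or more). The median score was nevertheless higher in members (0.0674 and 0.0556) than in the rest (0.0331 and 0.0345).

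The members were therefore described in 4 groups, by 400 CPM of Aqp2 and 400 CPM of Calb1, the calcium-binding protein of the distal convoluted and connecting tubule. The limit was set after the levels were seen. With both genes low there were 46 control members (25.6%) and 39 floxed members (35.5%), at median depths of 10639.5 and 10922 UMIs. With Aqp2 high and Calb1 low there were 99 (55.0%) and 56 (50.9%), at 33499 and 22541 UMIs. With Calb1 high and Aqp2 low there were 13 (7.22%) and 11 (10.0%), and with both high 22 (12.2%) and 4 (3.64%). The medians of the first group were close between the libraries (range 4043 to 80783 UMIs in the control and 1731 to 53864 in the floxed library), and those of the second were further apart. Between 200 and 800 CPM, 17 control and 8 floxed members lay near the limit for Aqp2, and 24 and 15 near that for Calb1.

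**Figure D2:**
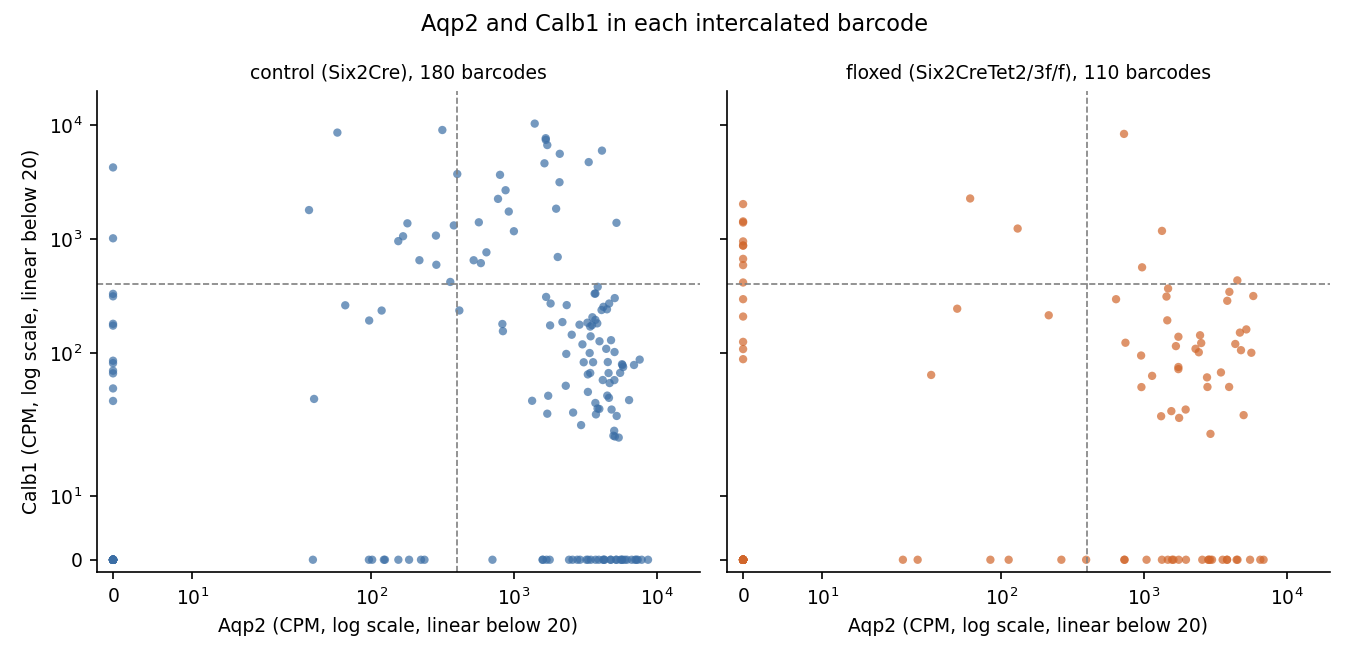
Each point is 1 member, by its CPM of Aqp2 and of Calb1 on log-type axes, with the limits of 400 CPM drawn as lines and the libraries side by side. Most control members (99 of 180) lie in the field with Aqp2 high and Calb1 low, and the field with both high holds 22 control and 4 floxed members.

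The genes of acid-base transport were described by their roles, and 1 of the 8 that could pass the rule of size did. Over 17 genes the list had a median log2 ratio of -0.08. Carbonic anhydrases supply protons and bicarbonate. Car2, the cytosolic form, was at 296 and 379 CPM in control and floxed members (ratio 1.28, 1.18 to 1.39) against 102 and 135 CPM in principal barcodes. Car12 was at 197 and 178 CPM (ratio 0.901, 0.803 to 1.01) against 12.2 and 10.9 CPM. Of the ammonia channels, Rhcg was at 185 and 296 CPM (ratio 1.60, 1.45 to 1.76) and Rhbg at 52.7 and 63.8 CPM (1.21, 0.987 to 1.48). Rhcg was also higher in floxed principal barcodes, at 190 against 80.4 CPM. Bsnd, an accessory subunit of chloride channels, was at 31.1 and 29.3 CPM. The exchanger Slc4a2, found in most epithelia, was at 55.8 and 44.7 CPM, and the cotransporter Slc12a2 at 99.1 and 57.8 CPM (ratio 0.584, 0.480 to 0.705). Slc12a2 did not pass, as its interval reached inside 1.5-fold, and in principal barcodes it was at 87.3 and 58.2 CPM.

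**Figure D3:**
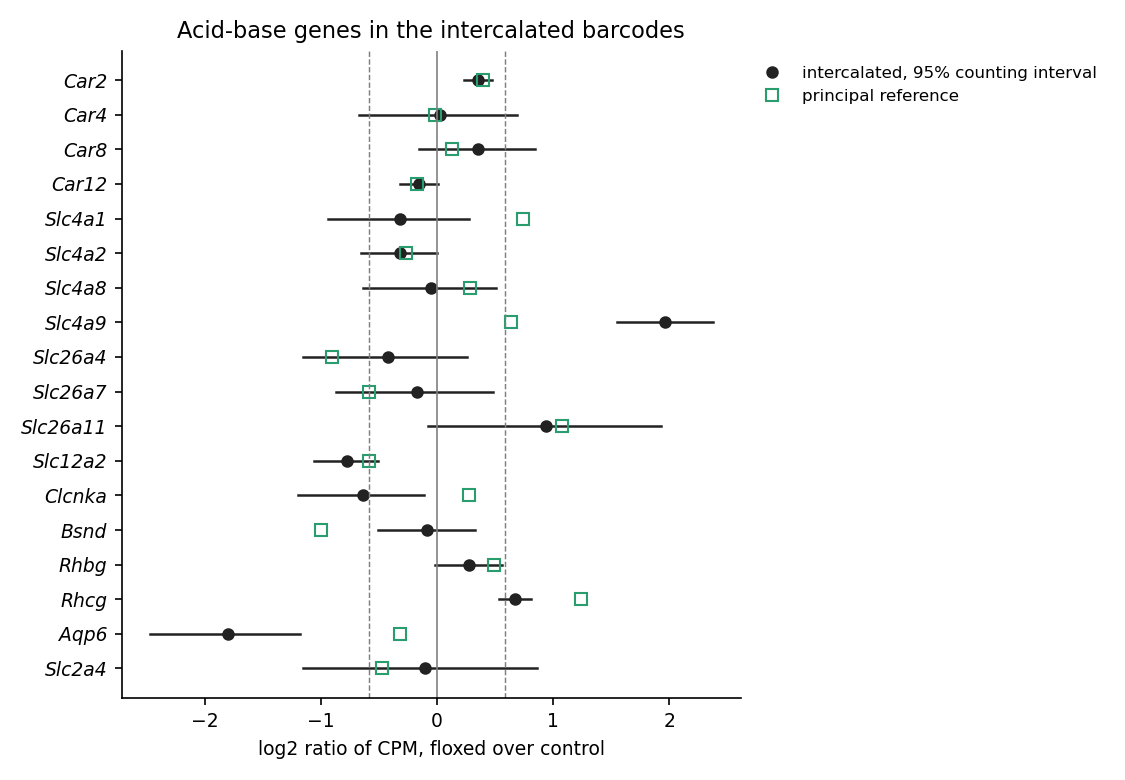
Log2 ratio of floxed over control CPM with its counting interval for acid-base genes in the members. Car15, at 3 and 0 UMIs, is among those left out. Slc4a9 lies farthest to the right and Aqp6 farthest to the left. Rhcg (ratio 1.60) and Slc12a2 (0.584) also lie away from 0.

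Slc4a9, the basolateral anion exchanger of type B cells, was the acid-base gene that passed. It was at 14.8 CPM in control members and 57.4 CPM in floxed members, 3.89-fold higher (2.94 to 5.19), from 82 and 135 UMIs. It was found in 30.0% of control and 64.5% of floxed members. After thinning each barcode to 5000 UMIs, which left 178 and 105 members, the shares were 8.86% and 28.6%. In endothelial barcodes the unthinned shares were 0.160% and 0.151%. The UMIs were spread over many members, since the 3 richest held 18.3% of them in the control and 16.3% in the floxed library. At far lower levels Slc4a9 was also higher in floxed thick ascending limb barcodes (0.480 and 4.53 CPM) and in all floxed non-members (0.120 and 0.721 CPM). In principal barcodes it was at 0.437 and 0.680 CPM, which rests on few UMIs. The thick ascending limb barcodes and the non-members include the 7 control and 11 floxed barcodes with 3 or more rule genes that Slc12a1 kept out. The log2 ratios were 1.961 in members and 2.59 in non-members. The part of those barcodes in the ratio of non-members was not tested. In members the ratio no longer passed in 6 of 15 alternative settings, with log2 ratios from 1.04 (fewer than 3 Aqp2 UMIs) to 2.55. The latter came from another thinning, of every barcode to 2000 UMIs with members chosen again by the rule. With 10000 to 30000 UMIs it was 1.17 and passed.

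Of the type B and non-A-non-B genes, 2 of the 3 that could pass the rule of size were higher in the floxed members. Besides Slc4a9 this was Hmx2, a homeobox transcription factor, at 21.6 and 77.0 CPM, 3.57-fold higher (2.82 to 4.53). Its log2 ratio was 1.83 in members, 1.60 in principal barcodes (0.801 and 2.43 CPM) and 1.70 in all non-members (0.240 and 0.782 CPM). Hmx2 was held by few barcodes, 27 control and 19 floxed, and the 3 richest held 40.8% and 39.2% of its UMIs. Among members with 10000 to 30000 UMIs its log2 ratio was 0.44 and it did not pass, which held in 5 of 15 alternative settings. Its share of members was 15% and 17.3% unthinned, and 7.34% and 12.7% after thinning. Slc26a4 itself was at 13.7 and 10.2 CPM (ratio 0.747, 0.451 to 1.19). Slc4a8, a sodium-driven bicarbonate exchanger, was at 16.7 and 16.2 CPM, and Insrr, an alkali-sensing receptor kinase, at 9.36 and 14.9 CPM. Oxgr1, the 2-oxoglutarate receptor of type B cells, was at 14.6 and 3.40 CPM (81 and 8 UMIs; ratio 0.234, 0.0975 to 0.482), too low for the rule of size. It was found in 25% and 6.36% of members, and after thinning in 7.55% and 1.67%. Spink8, a protease inhibitor, was at 311 and 319 CPM, and principal barcodes held it too, at 228 and 336 CPM.

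The type A genes gave 0 passes of the 3 that could pass, and Aqp6 stood apart from the others. Aqp6, a water channel of intracellular vesicles in type A cells (chromosome 15, 99598468 to 99605478), was at 35.4 CPM in control and 10.2 CPM in floxed members, from 197 and 24 UMIs. The ratio was 0.288 (0.180 to 0.441), and neither library reached the 50 CPM that the rule of size asks for. It was found in 39.4% of control and 10.9% of floxed members, and after thinning in 16.2% and 5.02%. Endothelial barcodes held it in 0.182% and 0%. Adgrf5, an adhesion receptor, was at 360 and 260 CPM (ratio 0.723, 0.660 to 0.792), Kit at 114 and 123 CPM, Dmrt2 at 61.9 and 69.8 CPM and the anion exchanger Slc26a7 at 13.0 and 11.5 CPM. Slc4a1 was at 16.9 and 13.6 CPM (ratio 0.805, 0.521 to 1.21). Red blood cell precursors also express Slc4a1, and erythroid RNA in the members was higher in the floxed library (709 and 4647 CPM over 6 genes). Its part in the Slc4a1 level was not tested. The 6 genes had a median log2 ratio of -0.24.

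The pairing of these genes within barcodes differed by gene pair. Of members with Slc26a4 or Slc4a1 but not both, Slc26a4 was the one detected in 15 of 62 control barcodes (24.2%, 14.2 to 36.7) and 7 of 25 floxed barcodes (28.0%, 12.1 to 49.4). The difference of 3.81 points lay within counting error, and its sign depended on the members taken. Slc4a9 without Aqp6 was seen in 33 control and 61 floxed members, Aqp6 without Slc4a9 in 50 and 2, both in 21 and 10, and neither in 76 and 37. These counts were not thinned. The members with Slc26a4 UMIs were richer in Hmx2 and Slc4a9, but not in Slc4a8 in the control (16.4 and 16.8 CPM). Oxgr1 was at 3.77 and 3.36 CPM in floxed members with and without Slc26a4, from 1 and 7 UMIs, too few to compare. Hmx2 was at 142 CPM in control members with Slc26a4 and 8.38 CPM in those without, and at 234 and 57.0 CPM in the floxed library. Slc4a9 was at 41.9 and 11.8 CPM in the control and at 86.8 and 53.7 CPM in the floxed library. Slc4a9 was thus higher in the floxed members that lacked Slc26a4 UMIs as well as in those that had them.

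Since the libraries differed in the makeup of the 4 groups, the type genes were read within each group. Slc4a9 was higher in the floxed library in the members with both Aqp2 and Calb1 low, at 37.6 and 86.1 CPM (ratio 2.29, 1.43 to 3.74), and with Aqp2 high and Calb1 low, at 10.7 and 45.4 CPM (4.25, 2.81 to 6.51). In the groups with Calb1 high it was at 14.4 and 64.3 CPM with Aqp2 low, and at 11.1 and 44.0 CPM with both high. Hmx2 was at 77.8 and 146 CPM with both low and at 11.8 and 42.7 CPM with Aqp2 high. Aqp6 was lower in the floxed library in each group, at 45.4 and 8.27 CPM with both low (5.49-fold lower, 2.14 to 17.9) and at 34.0 and 13.1 CPM with Aqp2 high (2.60-fold lower, 1.60 to 4.47). With Calb1 high, floxed members had 0 Aqp6 UMIs, against 28.7 CPM in the control with Aqp2 low and 35.7 CPM with both high. At these depths 3 UMIs would stand for 14.8 and 33.0 CPM. With both high, the counting interval of 0 UMIs reaches above the control level, so no difference can be read there. Oxgr1 was at 33.7 and 3.31 CPM with both low, and at 3.65 and 3.44 CPM with Aqp2 high and Calb1 low. Whether that gap differs between the groups was not tested. The direction for Slc4a9, Hmx2 and Aqp6 was the same in each group, and the size varied. In the groups with Calb1 high this rests on few UMIs. The floxed library held 11 members there with Aqp2 low (202302 UMIs in all) and 4 with both high (90868 UMIs).

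**Figure D4:**
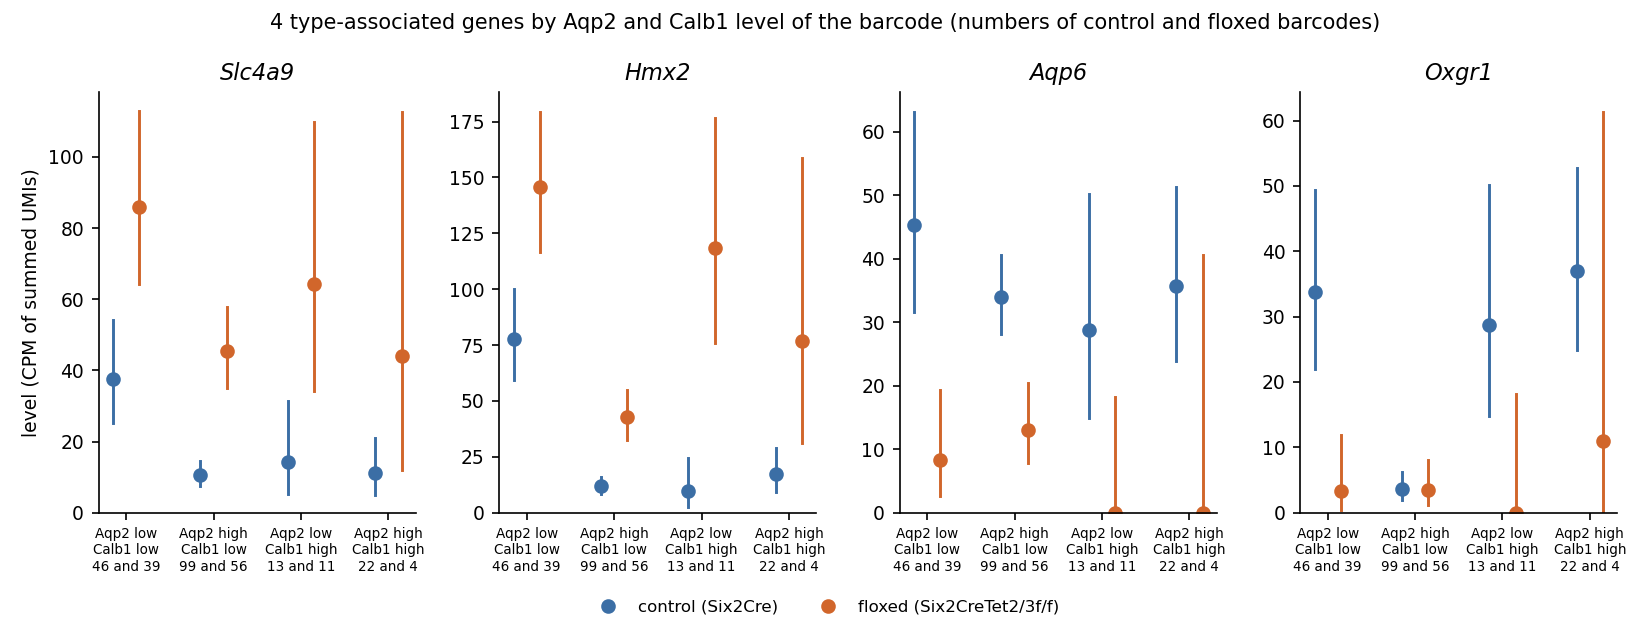
CPM of type genes in control and floxed members within each of the 4 groups by Aqp2 and Calb1, with counting intervals. The points of Slc4a9 lie higher and those of Aqp6 lower in the floxed library in every group, with only 11 and 4 floxed members in the groups with Calb1 high. Oxgr1 is at 33.7 and 3.31 CPM with both Aqp2 and Calb1 low and at 3.65 and 3.44 CPM with Aqp2 high and Calb1 low.

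Of the transcription factors, 1 of the 15 that could pass the rule of size did, the Hmx2 described above, and the median log2 ratio over 19 genes was 0.14. Foxi1 had a ratio of 1.23 (1.07 to 1.404). Tfcp2l1, which acts in both principal and intercalated cells, was at 570 and 740 CPM (1.30, 1.22 to 1.38) and at 291 and 392 CPM in principal barcodes. Gata3 was at 393 and 356 CPM, Pax2 at 227 and 202 CPM, Elf5 at 73.9 and 92.7 CPM and Hoxb7, a ureteric lineage gene, at 120 and 148 CPM. Emx2 was at 62.8 and 107 CPM (1.70, 1.44 to 2.01) without passing. Among receptors 0 of 5 passed. P2ry14, a UDP-glucose receptor of intercalated cells, was at 37.4 and 69.3 CPM (1.85, with a lower bound of 1.49999 that fell just short), and Avpr1a, a vasopressin receptor, at 21.8 and 19.6 CPM. In the Notch list 1 gene could pass and did not. This was Hes1, at 295 and 246 CPM, and the list's median log2 ratio was -0.01. The ligand Jag1 was at 38.7 and 44.2 CPM in members against 14.3 and 21.8 CPM in principal barcodes.

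The DNA methylation list had 1 gene higher and 1 lower of the 8 that could pass. Tdg, the glycosylase that removes oxidised methylcytosine, was at 66.9 and 26.8 CPM, 0.400 times the control level (0.302 to 0.524). It was lower in principal barcodes (70.5 and 31.0 CPM) and in the rest (69.6 and 36.1 CPM) as well. Gadd45b, a stress-induced gene also linked to demethylation, was at 45.5 and 91.5 CPM (2.01, 1.67 to 2.42), against 59.8 and 89.8 CPM in principal barcodes. It no longer passed in 5 of 15 alternative settings, where its log2 ratio went down to 0.23 (fewer than 3 Aqp2 UMIs). Tet1, which the floxed alleles do not touch, was at 14.03 and 25.1 CPM (1.79, 1.25 to 2.54), and Dnmt3a, a methyltransferase, at 82.8 and 105 CPM. The median of the list was 0.18 on the log2 scale.

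Of the 12 genes with the highest and the 12 with the lowest ratios, several differed as much in other cells. Tpm3-rs7 (2.88 and 91.5 CPM) and Rnaset2b (59.9 and 5.96 CPM) share reads with near-identical copies, Tpm3 and Rnaset2a, which moved the opposite way (203 and 115 CPM, and 60.3 and 116 CPM). Their values are uncertain, and their log2 ratios in principal barcodes were 4.97 and -3.46. Rnase4, a secreted ribonuclease, was at 16.6 and 146 CPM, 8.84-fold higher, with log2 ratios of 3.14 in members, 2.39 in principal barcodes and 1.38 in the rest. Pycard, an inflammasome adaptor, was at 47.5 and 173 CPM (3.64-fold), with log2 ratios of 1.86, 1.62 and 0.80. Hsd11b2, which shields the mineralocorticoid receptor from cortisol-type steroids, was at 67.1 and 165 CPM (2.46-fold), with log2 ratios of 1.30 in members and 1.30 in principal barcodes. Acaa2, an enzyme of fatty acid oxidation, was at 132 and 325 CPM (2.46-fold), with 1.30 and 1.19. Smim6 (3.82-fold), Apobec3 (2.97-fold), Nme7 (2.69-fold) and Plcg2 (2.42-fold) were also among the highest. Klk1, tissue kallikrein, was at 19.8 and 54.9 CPM, but 1 barcode held 72.9% of its floxed UMIs, and without each library's richest barcode it was at 13.9 and 15.1 CPM.

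Among the lowest ratios, Sostdc1 differed more in members than in principal barcodes. Sostdc1, a secreted antagonist of BMP and Wnt signals, was at 282 and 101 CPM, 2.79-fold lower (2.43 to 3.21), with log2 ratios of -1.48 in members and -0.12 in principal barcodes. The difference of both was -1.36 (-1.59 to -1.13). Other tubule barcodes held far more Sostdc1 than members. Those of the thick ascending limb were at 1345 and 1079 CPM, and those of the distal convoluted tubule at 915 and 1173 CPM. Sostdc1 was found in 106 control and 29 floxed members, with medians per member of 29.0 and 0 CPM. The 3 richest members per library held 20.5% and 39.5% of its UMIs. The part of distal tubule RNA in this difference was not tested. Msmo1, an enzyme of cholesterol synthesis, was at 89.6 and 23.8 CPM (3.76-fold lower), with -1.91 and -0.96. Olfm1, a secreted olfactomedin, was at 146 and 39.1 CPM (3.72-fold lower), with -1.90 and -1.23, and Col26a1 was at 102 and 27.2 CPM, with -1.90 and -1.54. Fabp4, a fatty acid carrier, was at 158 and 45.5 CPM, with -1.80 and -1.10. Snhg9 (5.35-fold), Zfp787 (3.14-fold), Pgam2 (3.04-fold) and Adi1 (2.78-fold) were lower too, and Snhg9, Zfp787 and Pgam2 had log2 ratios of -1.85, -1.35 and -1.68 in the rest of the kept barcodes. For Pgam2, 1 barcode held 58.6% of the floxed UMIs, and without each library's richest barcode it was at 68.8 and 10.4 CPM. Lrp2, an endocytic receptor of the proximal tubule, was at 53.1 and 15.7 CPM (3.37-fold lower). Differences between the fold in members and in other barcodes were not tested across animals.

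**Figure D5:**
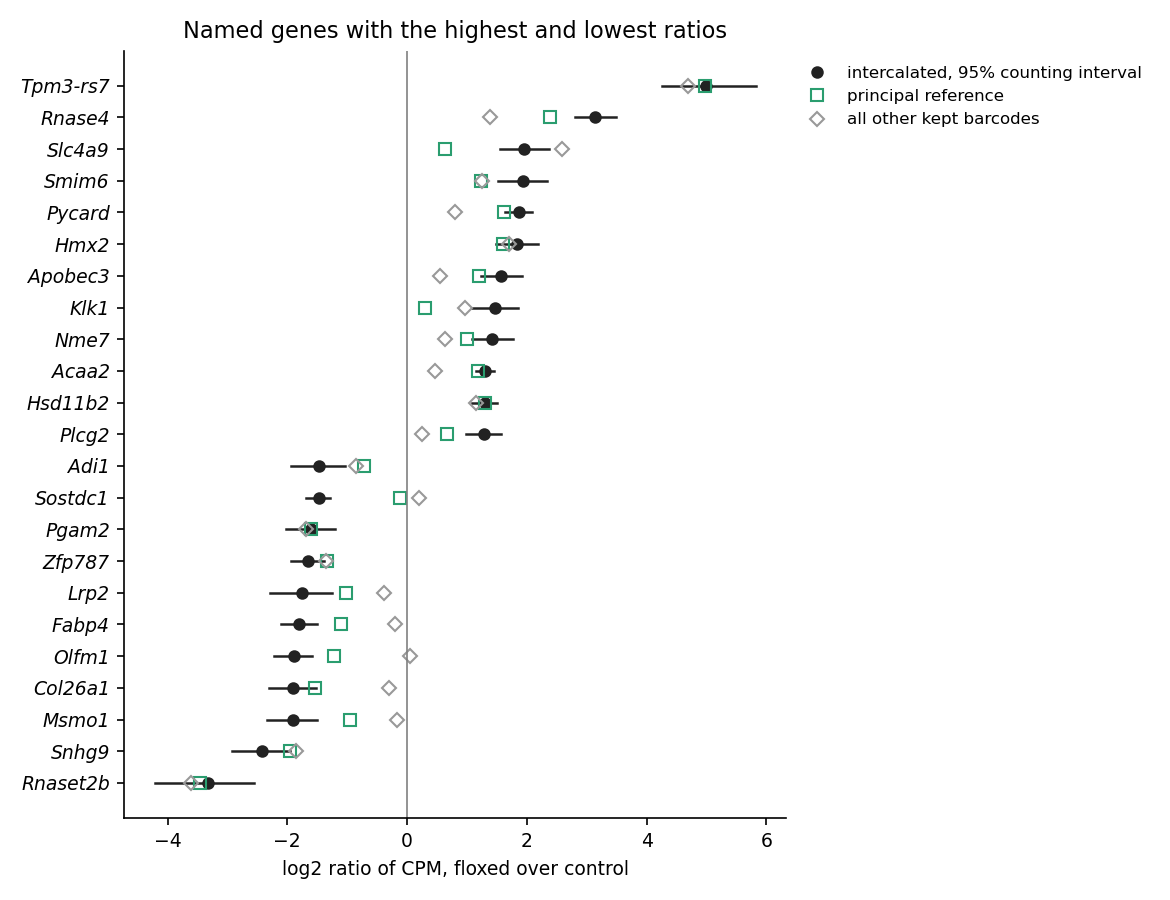
Log2 ratio of floxed over control CPM for genes with the highest and the lowest ratios in members, with the ratios in principal barcodes and in the rest of the kept barcodes beside them. Tpm3-rs7 and Rnaset2b lie together in all 3, while Sostdc1 is at -1.48 in members and -0.12 in principal barcodes.

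RNA of other cell types in the members differed between the libraries, not always in the direction seen in the rest. Its part in these results was not tested. The 8 proximal tubule genes summed to 233 CPM in control and 56.1 CPM in floxed members, with Miox at 0 in the floxed library, and Lrp2 passed as lower. In the rest they summed to 411 and 309 CPM. The 6 endothelial genes summed to 156 and 43.4 CPM, with Egfl7 passing as lower, and to 592 and 376 CPM in the rest. The 5 macrophage genes summed to 44.1 and 7.23 CPM, with C1qb and Csf1r at 0 in floxed members. In the rest they were higher in the floxed library, at 222 and 279 CPM. For C1qa, C1qb and C1qc, the richest control member of each gene held 60.0%, 65.2% and 81.0% of its control UMIs. The 6 erythroid genes went the other way, at 709 and 4647 CPM in members and 4128 and 13572 CPM in the rest. All 4 haemoglobin genes that could pass were higher in floxed members, and since Hba-a1 and Hba-a2, and Hbb-bs and Hbb-bt, are near-identical, their split is uncertain. A single control member held 61.0% of the control UMIs of Hba-a1. The 7 distal convoluted and connecting tubule genes summed to 4960 and 2257 CPM, with Slc12a3, Calb1 and S100g passing as lower. Within the groups the last difference did not keep its direction. S100g, a calcium-binding protein, was at 674 and 3364 CPM with both Aqp2 and Calb1 low and at 655 and 97.7 CPM with Aqp2 high and Calb1 low. Over all members, 3 barcodes held 55.9% of its floxed UMIs and 17.7% of its control UMIs. Slc12a3, the thiazide-sensitive cotransporter, had 71.9% and 73.1% of its UMIs in 3 barcodes per library. Of the floxed Calb1 UMIs, 1 barcode held 40.1%, and without each library's richest barcode Calb1 was at 645 and 186 CPM.

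Few genes of the cell state lists passed. Of the stress and immediate early genes 0 of 15 passed, with a median log2 ratio of 0.05, and of the oxidative phosphorylation genes 0 of 24 passed, with a median of -0.11. The 24 oxidative phosphorylation genes summed to 22461 and 20346 CPM in members and to 13800 and 14595 CPM in principal barcodes. In the cell cycle list, 16 of the 19 genes at 10 CPM or more had ratios below 1, beside 4090 of all 8854 genes at that level. The list's median was -0.53, but only Top2a could pass and it did not (60.1 and 41.7 CPM). The 20 genes of the list summed to 484 and 343 CPM in members. They were lower in other floxed barcodes as well, at 1210 and 807 CPM in principal barcodes and 1741 and 1374 CPM in the rest. Mki67 was found in 34.4% of control and 19.1% of floxed members, and after thinning in 12.1% and 7.38%, beside 38.9% and 25.9% of principal barcodes unthinned. Of the interferon-induced genes, Ifitm3 was the 1 that could pass and was lower, at 126 and 65.1 CPM. It was also lower in the rest, at 585 and 313 CPM.

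Members made up 0.850% (0.730 to 0.982) of kept barcodes in the control and 0.703% (0.578 to 0.847) in the floxed library. The ratio was 0.828 (0.647 to 1.05), so the difference was not larger than counting error. Of members and principal barcodes together, members were 19.6% (17.1 to 22.3) in the control and 12.2% (10.2 to 14.6) in the floxed library. The gap between the libraries turned with the definition. With members of fewer than 3 Aqp2 UMIs the log2 ratio of shares was 0.44 in place of -0.27, and with at least 2 of the 7 genes asked for it was 0.095. With only members of 10000 to 30000 UMIs counted, still over all kept barcodes, it was 0.19. The part of depth in these differences was not tested.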

How the data were processed

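Gene by barcode UMI counts were deposited by the authors as 1 unnormalised matrix per library. Per the submitters' processing notes the reads went through Cell Ranger 6.0.2 with mm10, whereas version 6.0.1 stands in the matrices, per the file headers. Which annotation release was used is not given in the sources used here. Bisulfite samples of the series were not analysed here. Members and gene lists were chosen with earlier results of these data known.

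Counts were summed over members and expressed as CPM. Ratios have exact conditional binomial intervals and shares Clopper-Pearson intervals. Named genes were the list members, the 12 highest and 12 lowest ratios past the rule of size, and the 20 highest folds over other barcodes, without mitochondrial, ribosomal, haemoglobin, sex-linked and predicted genes. Some genes named by this rule are not reported here. List medians use genes at 10 CPM or more. Doublets were not removed: scrublet's automatic threshold (scanpy 1.11.5) marked 0 barcodes in both libraries and so had not worked, and leaving out the top 8% of scores was an alternative only. The calculations were tested on simulated data and used Python 3.11.15, numpy 2.4.6, scipy 1.17.1 and pandas 2.3.3, with TMM factors from edgeR 4.0.16. Promoters and coordinates are from RefSeq on GRCm38.p6, matched by symbol. UMIs of 1 library are not independent animals.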

Additional observations from a re-analysis of the deposited data

How the results depend on the processing

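No paired analysis was possible because each genotype had 1 library. The log2 ratio of member shares (-0.27) turned to 0.095 with at least 2 rule genes and 0.44 without members of 3 or more Aqp2 UMIs. Under alternatives chosen after seeing the data it was 0.20 with Aqp2 and Calb1 both under 400 CPM. It was 0.23 without members holding 3 or more proximal tubule or endothelial genes, and 0.19 with only members of 10000 to 30000 UMIs. These alternatives narrowed the members, and all kept barcodes stayed the base of the shares. The 84 higher and 79 lower genes became 17 and 14 after thinning to 2000 UMIs, 46 and 43 at a minimum of 100 CPM, and 20 and 20 beyond 2-fold. Thinning in this section brought every barcode of at least 2000 UMIs down to that depth, and members were chosen again by the rule. The higher genes became 145 at a minimum of 25 CPM and 49 at 10000 to 30000 UMIs. The acid-base median (-0.08) was -0.35 with at least 2 rule genes and -0.54 without Aqp2-bearing members, and the widely expressed pump median (0.04) was -0.30 after thinning. The difference in Slc26a4 share (3.81 points) was -10.6 without Aqp2-bearing members, -16.7 after thinning, -8.36 with both genes low, 14.2 with Aqp2 high and Calb1 low, and -14.3 at 10000 to 30000 UMIs. Some log2 ratios of genes past the rule of size changed sign. S100g was at 0.26 without Aqp2-bearing members and 2.32 with both genes low. Calb1 was at 0.013 with both low, and Slc12a3 at 0.48 with Aqp2 high and Calb1 low. After thinning, which keeps few UMIs, Atp6v1b1 was at -0.39 and Tdg at 0.55. Of genes not past the rule of size, Aqp6 and Oxgr1 were at 0.14 and 0.55 after thinning, again from few UMIs. Atp6v1g3 (0.23) was at -0.21 without Aqp2-bearing members, -0.11 after thinning and -0.17 at 10000 to 30000 UMIs. Tet3 (-0.25) was at 0.061 at 10000 to 30000 UMIs. The log2 ratio of Slc4a9 lay between 1.04 and 2.55 over the settings run. The cause of these changes was not tested.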
